A study of Caenorhabditis elegans with 12 samples.

Results

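The minor 3p arms of 26 miRNA precursors were followed in small RNA libraries from whole Caenorhabditis elegans larvae. For each precursor counted on both arms, the arm with the lower mean count over all 12 libraries was taken as minor. A minor arm was kept when it lay on the 3p side and had a summed count of 60 or more. Left out by name were 17 precursors, among them let-7, miR-51 and miR-229. Of 471 counted features, 152 precursors had both arms, and in 56 of these the 3p arm was minor. Among those 56, 20 were under the count minimum and 10 were left out by name, which leaves the 26. The counts that chose the arms also set how far each 3p arm lies below its 5p partner, so that distance is given as a description without a test.

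The strains differed at mbl-1, which encodes the worm Muscleblind RNA-binding protein. The mbl-1(tm1563) mutant, written tm1563 here, was set against wild type (WT, the N2 strain). In the edited mutants mbl-1(syb4318) and mbl-1(syb4345) the gene makes one isoform of the protein, the short one in one mutant and the long one in the other. Their count columns carry the codes ME and SH, from which the names ME line and SH line are taken here. No label ties either code to an allele or to an isoform. The columns used for tm1563 and WT are likewise known by their codes. No treatment and no transgene is given for any group, and all animals were grown at 20 °C on OP50 bacteria and collected as L4 larvae. Each of the 4 genotypes had 3 libraries, described as biological replicates of whole organisms, so every value is an average over many animals and all their cells. In such bulk samples fewer cells of a type and less RNA per cell cannot be told apart.

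A miRNA is cut from a hairpin RNA by Drosha and then Dicer, which leaves a short duplex of the 5p and 3p arms. As a rule one strand, the guide, is kept by an Argonaute protein and directs repression of target mRNAs, while the other strand, often called the passenger or star strand, is released and degraded. The minor arm in a library is usually that passenger strand, although some precursors load both arms. Muscleblind proteins are best known as regulators of alternative splicing in muscle and neurons, and human MBNL1 has also been reported to bind the precursor of miR-1.

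The libraries held between 6946205 and 12053039 counts. WT library 1 detected 326 features, against 365 to 400 in the other libraries. Stage and tissue markers were all present, namely lin-4-5p and let-7-5p of the larval timing pathway, muscle miR-1-3p and the embryonic and germline miR-35 family. Of these, let-7-5p lay between 5576 and 7347 CPM (counts per 1000000, scaled by the trimmed mean of M-values, TMM, of edgeR). The 8 arms miR-35-3p to miR-42-3p of the miR-35 family summed to 1379 to 1957 CPM. Among them miR-41-3p was hardly detected, at 0.114 to 1.57 CPM. In all 12 libraries every one of the 26 minor 3p arms had at least 1 count. The 26 arms together made up between 0.0843% and 0.147% of all counts. After a filter on low counts, 250 features were tested, 22 of the minor 3p arms among them. The 4 arms not tested were miR-53-3p, miR-244-3p, miR-1820-3p and miR-4806-3p.

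Mean levels of the 26 arms spanned 0.650 to 662 CPM, with a median of 7.48 CPM. Each read covers a whole arm, and the annotated 3p arms were 21 to 24 bases long, so CPM values of different arms are compared without a further correction for length. Only 2 arms averaged 100 CPM or more, 9 lay between 10 and 100 CPM, 10 between 1 and 10 CPM, and 5 under 1 CPM. The 5p partner exceeded the 3p arm by 1.35-fold to 4873-fold, with a median of 17.1-fold. The 3p share of a precursor's counts was under 1% for 11 precursors, 1 to 10% for 4, and 10% or more for 11. In the plot of both arms by precursor, arms of similar 3p level stand at very different distances from their partners, as for miR-72-3p at 15.2 CPM with a share of 0.126% and miR-231-3p at 14.9 CPM with a share of 33.5%.

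**Figure D1:**
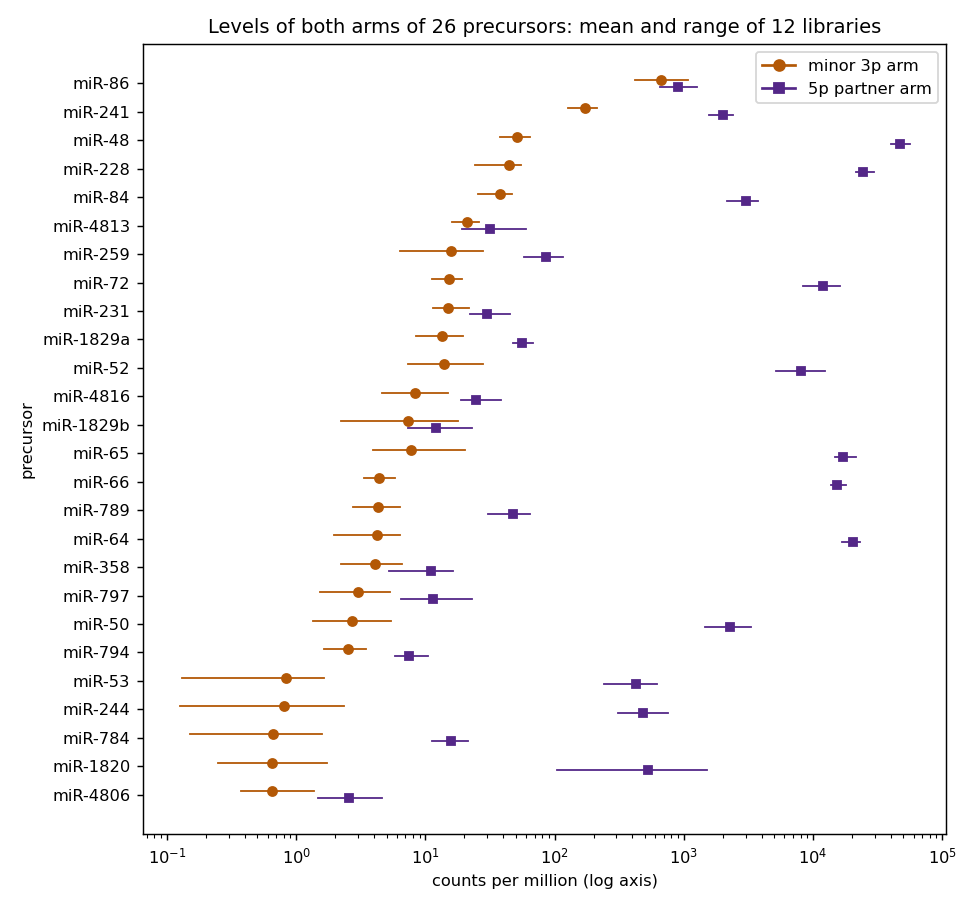
Mean level of the minor 3p arm (circles) and of its 5p partner (squares) for 26 precursors, in CPM on a log axis, with lines from the lowest to the highest of 12 libraries. The 3p arms run from 0.650 to 662 CPM, and the distance to the 5p arm runs from 1.35-fold for miR-86 to 4873-fold for miR-64.

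The let-7 family, whose 5p guides time the larval stages of the worm, gave 4 of the arms: miR-48-3p, miR-84-3p, miR-241-3p and miR-794-3p. The let-7 precursor itself was left out by name. miR-241-3p was the second most abundant of the 26 arms. Its libraries had 189.6, 212 and 175 CPM in tm1563, 196, 171 and 170.4 CPM in the ME line, 156, 177 and 127 CPM in the SH line, and 188, 152 and 162 CPM in WT. The libraries of miR-241-3p overlapped between all 4 genotypes. The hairpins mir-48 and mir-241 lie within 2000 bases of each other on the minus strand of chromosome V, yet their 3p shares were 0.108% for miR-48 and 7.84% for miR-241. miR-48-5p, the most abundant 5p partner, averaged 46713 CPM over the 12 libraries, and miR-48-3p averaged 50.9 CPM. miR-84-3p made up 1.24% and miR-794-3p 24.7% of their precursors. Summed over the 4 let-7 family members, the 3p arms gave 285 ± 14.0 CPM in tm1563, 282 ± 19.7 CPM in the ME line, 234.9 ± 28.2 CPM in the SH line and 256 ± 18.7 CPM in WT (SD, n = 3 each).

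The lowest 3p shares of the 26 belonged to miR-64, miR-66 and miR-65, which are encoded side by side with mir-229 in an intron of gcn-1 on chromosome III. Their neighbour miR-229, left out by name, had 18772 counts of its 3p arm and 106830 of its 5p arm, so its 3p share was far higher. miR-64-3p was 0.0205%, miR-66-3p 0.0290% and miR-65-3p 0.0424% of its precursor's counts. miR-64-3p had 3.15, 4.13 and 1.94 CPM in tm1563, 6.33, 4.95 and 6.29 CPM in the ME line, 2.74, 3.99 and 4.05 CPM in the SH line, and 4.04, 4.11 and 4.63 CPM in WT. The ME libraries of miR-64-3p were higher than those of every other genotype, while its 5p arm stayed between 16771 and 23044 CPM. miR-65-3p, singled out after its values were seen, reached 20.4 CPM in SH library 2, against 3.90 to 9.16 CPM in the other 11 libraries. For miR-66-3p the range over all libraries was 3.36 to 5.85 CPM.

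Another 7 precursors had a 3p share under 1%. miR-228-3p, the minor arm of a glia-expressed miRNA, was 0.183% of its precursor, miR-72-3p was 0.126%, and miR-50-3p, from an intron of the talin gene tln-1, was 0.115%. The mir-51 group, a nematode family related to miR-100 whose members act redundantly in embryonic development, gave miR-52-3p at 0.168% and miR-53-3p at 0.201%. miR-52-3p, singled out after its values were seen, had 27.8 CPM in WT library 1 and 7.32 to 16.5 CPM elsewhere. In counts, miR-52-3p had 186 in WT library 1 and 56 to 137 elsewhere. WT library 1 had the lowest TMM factor, 0.788 against 0.913 to 1.18, so all its CPM values are higher than library totals alone would give. Why miR-52-3p was high in this library was not tested. miR-244-3p at 0.166% and miR-1820-3p at 0.130% completed the 11 precursors. miR-1820-5p itself ran from 104 to 1501 CPM between libraries, and miR-1820-3p had 2 to 14 counts in any library.

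At the other end of the scale, miR-86, miR-4813 and miR-1829b had the highest 3p shares, with 42.5% for miR-86, 39.8% for miR-4813 and 38.8% for miR-1829b. These were also the 3 precursors in which the 3p arm passed the 5p arm in at least 1 library. miR-86-3p was 60.4% of its precursor in ME library 3 (Wilson 95% interval 59.5% to 61.3%, counting error only). miR-4813-3p was 56.4% in SH library 1 (51.2% to 61.5%) and 52.4% in tm1563 library 2 (47.5% to 57.3%), and in WT library 1 both arms of miR-4813 had 163 counts. miR-1829b-3p was 50.2% in WT library 3 (44.7% to 55.6%). Only the intervals of miR-86 in ME library 3 and miR-4813 in SH library 1 lie wholly above an even split, and in the other 23 precursors the 5p arm was higher in all 12 libraries. The hairpin of mir-4813 overlaps an exon of idhg-1, a subunit gene of mitochondrial isocitrate dehydrogenase, on the same strand.

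Shares of 10% or more were also found for miR-231 (33.5%), miR-358 (27.0%), miR-4816 (25.8%), miR-794, miR-797 (21.0%), miR-4806 (20.2%), miR-1829a (19.5%) and miR-259 (16.3%). Between these and the low group lay miR-789 (8.11%), miR-241, miR-784 (4.26%) and miR-84. The name miR-789 covers 2 annotated hairpins on chromosome IV, mir-789-1 and mir-789-2, so its counts cannot be assigned to one of them. Of the 26 precursors, 9 lie in introns of a gene on the same strand, 14 have no protein-coding gene around them, and 10 have another annotated miRNA within 2000 bases. In the annotation the 3p arms had a median length of 22 bases and the 5p partners 23 bases, with 12 to 24 bases between them.

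Just inside the count minimum lay miR-4806-3p with 65 counts and miR-1820-3p with 69, and just outside lay miR-5545-3p with 37 and miR-8206-3p with 38. Just inside the arm order lay miR-86 and miR-4813, and just outside lay miR-8186 with a 3p share of 53.4% and miR-77 with 53.7%.

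miR-86-3p was by far the most abundant of the arms, and it alone gave between 53.5% and 70.3% of the summed CPM of the 26 arms in a library. Its hairpin lies on chromosome III of build WBcel235 (chr III, bases 11936637 to 11936734, minus strand) in an intron of Y56A3A.7. miR-86-3p had 728, 666 and 575 CPM in tm1563, 831, 754 and 1073 CPM in the ME line, 469, 554 and 419 CPM in the SH line, and 643, 609 and 621 CPM in WT. The ME libraries were all higher than the libraries of the other genotypes, and the SH libraries were all lower. Over the same libraries its 5p partner averaged 895 ± 65.5 CPM in tm1563, 933 ± 199.9 CPM in the ME line, 883 ± 83.2 CPM in the SH line and 909 ± 323 CPM in WT (SD, n = 3 each). The 3p share of miR-86 was 42.2% ± 3.798 in tm1563, 48.8% ± 10.1 in ME worms, 35.2% ± 2.75 in SH worms and 41.8% ± 7.68 in WT (SD, n = 3 each).

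The isoform lines were set against each other to ask whether lines with different MBL-1 isoforms differ in minor 3p arms. Here 2 of the 22 tested arms passed an adjusted p of 0.05, both higher in the ME line (edgeR's quasi-likelihood test, Benjamini-Hochberg over 250 features). Over all features 14.4% passed in this comparison. miR-86-3p was higher by 0.88 ± 0.18 on the log2 scale (SE), 1.84-fold, with an adjusted p of 0.00368 by edgeR. Its 5p partner differed by 0.08 ± 0.23 (95% interval -0.40 to 0.56). The miR-86 call was lost without ME library 3 (adjusted p = 0.0505 by edgeR) and without SH library 1 (adjusted p = 0.0561), with a log2 difference of 0.60 to 1.00 over the 6 omissions.

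miR-228-3p was the other arm called between the ME line and the SH line. It had 46.7, 46.8 and 46.3 CPM in tm1563, 50.9, 42.9 and 52.5 CPM in the ME line, 36.7, 24.2 and 30.7 CPM in the SH line, and 54.6, 44.0 and 53.4 CPM in WT. The 3 SH libraries lay below all 9 others. miR-228-3p was higher in the ME line than in the SH line by 0.67 ± 0.19 on the log2 scale (SE), with an adjusted p of 0.0252 by edgeR, and the same comparison gave an adjusted p of 0.0645 by DESeq2. Leaving out ME library 2 kept the edgeR call, and leaving out any other of the 6 libraries ended it, with adjusted p up to 0.188. DESeq2 called miR-86-3p and miR-1829a-3p, again 2 of 22, against 17.2% of all features. miR-228-5p, at 25008 ± 2748 CPM in the ME line and 23988 ± 1313 CPM in the SH line (SD, n = 3 each), differed by 0.06 ± 0.16 on the log2 scale (SE).

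**Figure D2:**
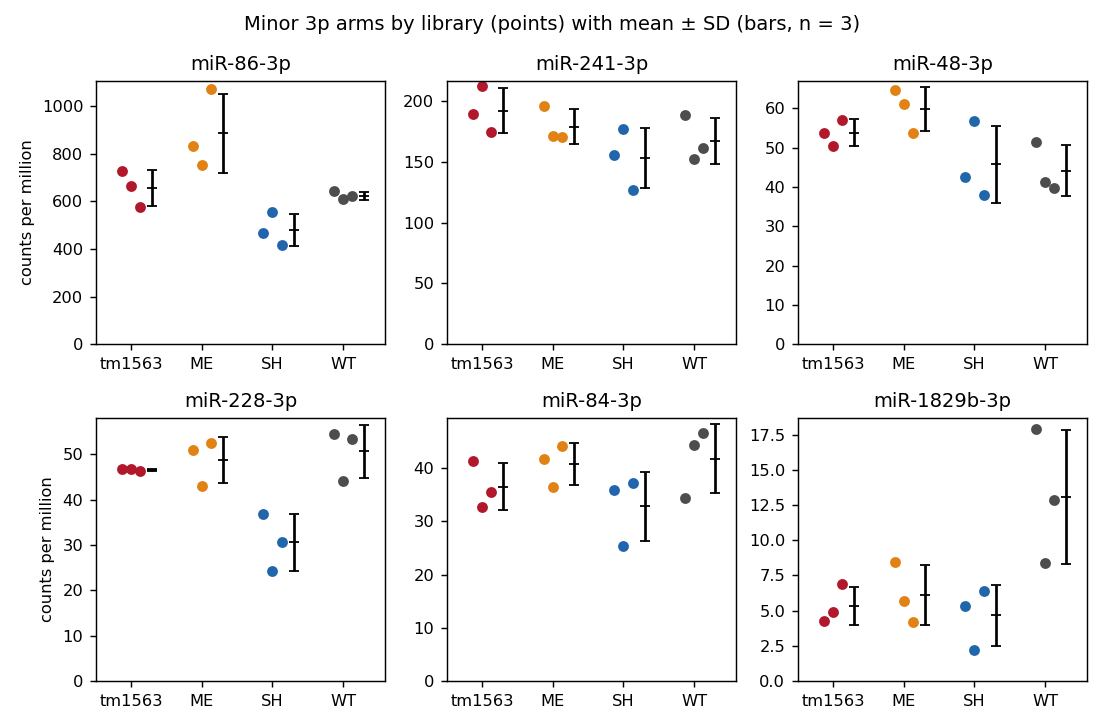
Level of 6 minor 3p arms in each library, in CPM, for tm1563, the ME line, the SH line and WT; points are libraries and bars are mean ± SD (n = 3). The ME libraries of miR-86-3p (754 to 1073 CPM) lie above the SH libraries (419 to 554 CPM), and the WT libraries of miR-1829b-3p (8.42 to 17.9 CPM) lie above those of tm1563 (4.27 to 6.86 CPM).

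A further 3 arms had an unadjusted p under 0.05 between the ME line and the SH line, which makes 5 of 22 arms against 26.4% of all features. miR-797-3p had 5.34, 3.71 and 4.20 CPM in the ME line, against 1.87, 2.66 and 2.62 CPM in the SH line, and missed the threshold with an adjusted p of 0.128 by edgeR. miR-64-3p, with the values given above, had an adjusted p of 0.152 by edgeR. miR-1829a-3p was the one of the 3 with lower values in the ME line, at 10.7, 10.1 and 8.39 CPM, against 16.1, 8.86 and 19.4 CPM in the SH line (adjusted p = 0.152 by edgeR and 0.0487 by DESeq2). Libraries of the isoform lines were apart, without overlap, for 5 of the 22 arms, against 30.4% of all features.

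As a list, 16 of the 22 arms had a positive log2 difference in the ME line against the SH line, and 6 a negative one. Their median was 0.35, against 0.13 for all 250 features and -0.03 for their own 5p partners. Of all 250 features, 145 were positive and 105 negative. With relative log expression (RLE) size factors in place of TMM the median of all features was -0.03 and that of the arms 0.19. When 1 library was omitted, the median of the arms ran from 0.13 to 0.37. It was lowest without ME library 1, where the median of all features was 0.04. The mirror set of 45 minor 5p arms, chosen by the same rule on the other side of the hairpin, had a median of 0.56 and 14 calls, all higher in the ME line. Among the 22 partner arms, miR-789-5p and miR-4816-5p were called higher and miR-358-5p lower in the ME line. The signs of a 3p arm and its partner were the same in 13 of the 22 precursors.

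The ratio of the minor to the major arm within a precursor does not depend on how libraries are scaled. It was tested in one edgeR model over 80 precursors, with a term for each library, and for the ME line against the SH line none of the 22 ratios of minor 3p arms passed an adjusted p of 0.05, by edgeR or by limma on log2 ratios. Of all 80 precursors 23.8% passed. At an unadjusted p under 0.05 there were 5 of the 22, for miR-86, miR-228, miR-64, miR-259 and miR-789. The ratio of miR-86 was higher in the ME line by 0.81 ± 0.32 on the log2 scale (SE, adjusted p = 0.070 by edgeR), that of miR-228 by 0.63 ± 0.24 (adjusted p = 0.0612) and that of miR-64 by 0.78 ± 0.29 (adjusted p = 0.0612). The median log2 difference of the ratio was 0.28 over the 22 precursors, 0.60 over the 45 with a minor 5p arm, where 14 ratios were called higher and 1 lower, and 0.41 over all 80. The ratios of 7 of the 22 precursors did not overlap between the lines, against 43.8% of all 80, and at an unadjusted p under 0.05 the share of all 80 was 38.8%.

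**Figure D3:**
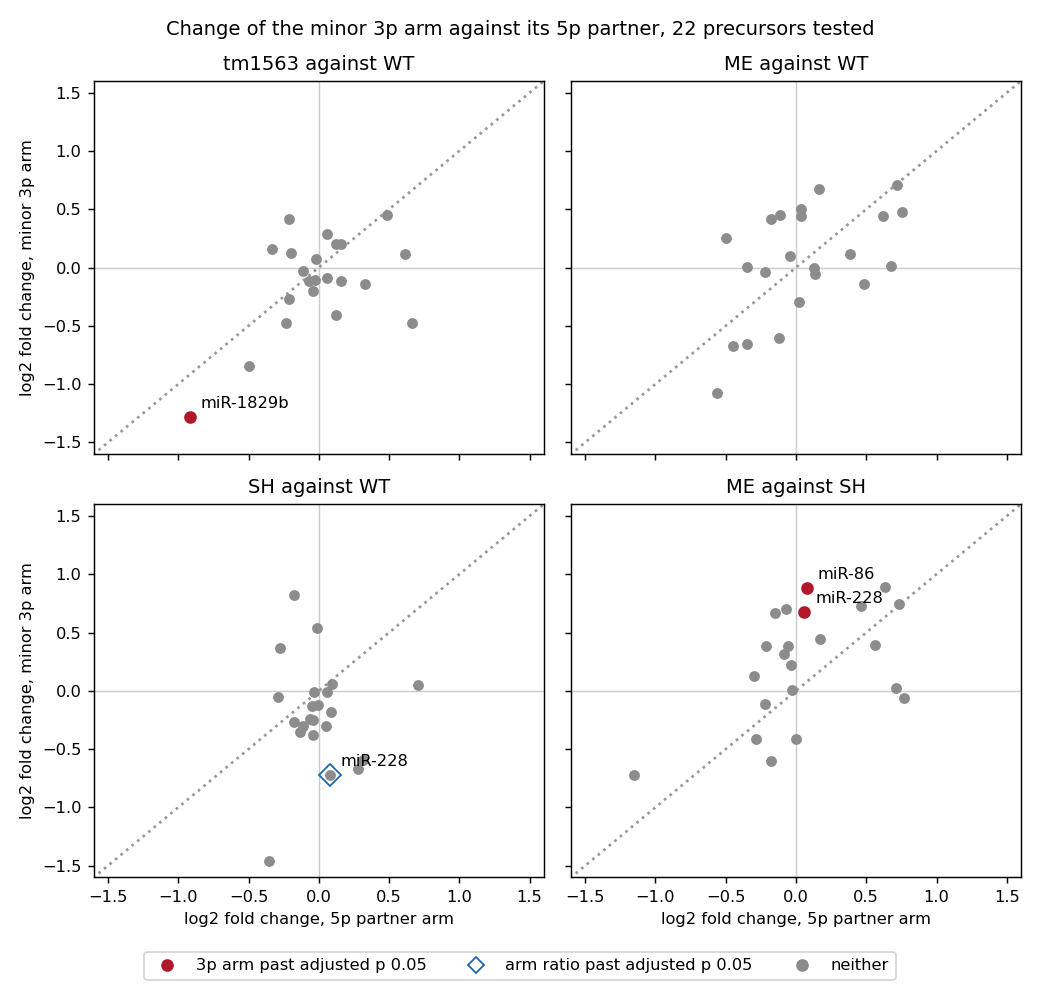
Log2 difference of the minor 3p arm (vertical axis) against that of its 5p partner (horizontal axis) for 22 precursors in 4 comparisons; red points passed an adjusted p of 0.05 for the level of the 3p arm, a blue diamond marks a called arm ratio and the dotted line is equal change of both arms. miR-1829b lies low on both axes in tm1563 against WT, while miR-86 and miR-228 in the ME line against the SH line lie near 0 for the 5p arm.

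For the tm1563 mutant against WT, 1 of the 22 tested arms was called, against 10% of all features. miR-1829b-3p, from an intron of F20D1.3 on chromosome X (bases 14977119 to 14977178, plus strand), was lower in the mutant. It had 4.27, 4.88 and 6.86 CPM in tm1563, 8.44, 5.69 and 4.20 CPM in the ME line, 5.35, 2.22 and 6.41 CPM in the SH line, and 17.9, 8.42 and 12.8 CPM in WT. All tm1563 and SH libraries lay below the WT libraries, and ME library 1 lay just above the lowest WT library. The log2 difference of miR-1829b-3p in tm1563 was -1.28 ± 0.37 (SE), with an adjusted p of 0.0420 by edgeR, and it was the 1 arm called by DESeq2 too (adjusted p = 0.00829, with 14.4% of all features called). Leaving out 1 library ended the edgeR call in 4 of 6 cases, with an adjusted p of 0.155 without tm1563 library 1, 0.0990 without tm1563 library 2, 0.113 without WT library 1 and 0.0987 without WT library 3.

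Both arms of miR-1829b moved in the same direction in tm1563. miR-1829b-5p averaged 8.45 ± 0.976 CPM in tm1563 and 16.1 ± 5.73 CPM in WT (SD, n = 3 each) and was called lower, with a log2 difference of -0.92 ± 0.26 (SE, adjusted p = 0.0398 by edgeR). The ratio of its arms differed by -0.37 ± 0.42 (SE, adjusted p = 0.617 by edgeR). The 3p share was 38.4% ± 4.23 in tm1563, 35.5% ± 7.01 in ME worms, 27.3% ± 13.1 in SH worms and 44.6% ± 5.28 in WT (SD, n = 3 each).

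The name miR-1829 is shared with miR-1829a, which lies in an intron of gas-1, a mitochondrial complex I subunit gene, elsewhere on chromosome X. How reads that match both names were counted is not given in the sources used here, so single values of these arms are uncertain. miR-1829a-3p averaged 14.6 ± 2.05 CPM in tm1563 and 14.9 ± 0.780 CPM in WT (SD, n = 3 each), with a log2 difference of -0.03 ± 0.26 (SE). The 3p arms of both names together gave 19.9 ± 3.31 CPM in tm1563, 15.8 ± 3.27 CPM in the ME line, 19.4 ± 7.55 CPM in the SH line and 27.9 ± 4.35 CPM in WT (SD, n = 3 each).

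No other minor 3p arm had an unadjusted p under 0.05 in tm1563, which makes 1 of 22 against 25.6% of all features. The next in order were miR-64-3p, with a log2 difference of -0.48 ± 0.31 (SE, adjusted p = 0.376 by edgeR), and miR-66-3p, with -0.41 ± 0.26 (SE, adjusted p = 0.376 by edgeR). miR-66-3p had 4.17, 3.50 and 4.12 CPM in tm1563, against 4.78, 4.97 and 5.85 CPM in WT. Together with miR-1829b-3p it was 1 of 2 arms whose groups did not overlap, against 34.4% of all features. The median log2 difference of the 22 arms was -0.10, against 0.03 for all features, -0.02 for the 5p partners and -0.18 for the minor 5p arms. Without WT library 2 the median of the arms was 0.03 and that of all features 0.08. With library totals in place of TMM the median of all features was 0.15 and that of the arms -0.01.

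None of the 22 arm ratios was called in tm1563 by edgeR, against 5% of 80 precursors, nor by limma on log2 ratios, and only 1 had an unadjusted p under 0.05, against 25% of all 80. That was miR-52, with a log2 difference of -1.05 ± 0.43 (SE, adjusted p = 0.161 by edgeR). The ratios of miR-52 and miR-66 did not overlap between tm1563 and WT, 2 of 22 against 35% of all 80.

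For the ME line against WT none of the 22 arms was called by edgeR, against 13.6% of all features, and DESeq2 called 1, against 19.6%. At an unadjusted p under 0.05 there were 4 arms, with 32.4% of all features under that value. miR-1829b-3p, the arm DESeq2 called (adjusted p = 0.0176), averaged 6.11 ± 2.15 CPM in the ME line and 13.1 ± 4.76 CPM in WT (SD, n = 3 each), with an adjusted p of 0.0583 by edgeR. miR-86-3p averaged 886 ± 167 CPM in the ME line and 624 ± 17.5 CPM in WT (SD, n = 3 each), a log2 difference of 0.51 ± 0.18 (SE, adjusted p = 0.0604 by edgeR).

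The other 2 of these 4 were miR-1829a-3p and miR-48-3p. miR-1829a-3p had 10.7, 10.1 and 8.39 CPM in the ME line, against 14.0, 14.9 and 15.6 CPM in WT, without overlap (adjusted p = 0.122 by edgeR). miR-48-3p had 64.8, 61.0 and 53.7 CPM in the ME line, against 51.6, 41.3 and 39.7 CPM in WT, also without overlap (adjusted p = 0.127 by edgeR). In 6 of 22 arms the libraries of the ME line and WT did not overlap, 3 higher and 3 lower, against 34% of all features.

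The untested miR-244-3p, singled out after its values were seen, had 19, 8 and 11 counts in the ME line, against 3, 3 and 8 in WT, with 10, 1 and 7 in tm1563 and 2, 4 and 4 in the SH line.

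Where the minor 5p arms of the ME line had a median log2 difference of 0.20 from WT, with 8 called higher and 2 lower, the minor 3p arms had a median of 0.06, beside the 0.07 of all features. With RLE size factors the arms had a median of -0.05 and all features -0.04. None of the 22 arm ratios passed an adjusted p of 0.05 or an unadjusted p of 0.05 by edgeR in this comparison, and limma on log2 ratios called none. Of all 80 precursors 8.75% passed the adjusted and 32.5% the unadjusted threshold, and 30% did not overlap between the groups, against 4 of the 22. The median log2 difference of the ratio was -0.19 over the 22 precursors, 0.29 over the 45 with a minor 5p arm and 0.21 over all 80. When 1 library was omitted, the median ran from -0.24 to 0.01 for the minor 3p arms and from 0.08 to 0.25 for all precursors. Whether the lists differ was not tested.

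For the SH line against WT none of the 22 arms was called by edgeR, against 2% of all features, and DESeq2 called 2, against 4%. The arms that DESeq2 called were miR-1829b-3p (adjusted p = 0.0152) and miR-228-3p (adjusted p = 0.0291), both lower in the SH line. By edgeR miR-1829b-3p had a log2 difference of -1.46 ± 0.38 (SE, adjusted p = 0.0578) and miR-228-3p of -0.73 ± 0.19 (SE, adjusted p = 0.0585). miR-86-3p was the only other arm with an unadjusted p under 0.05, at 481 ± 68.4 CPM in the SH line and 624 ± 17.5 CPM in WT (SD, n = 3 each; adjusted p = 0.335 by edgeR). That makes 3 of 22 arms, with 14.4% of all features under that value, and 4 of 22 arms did not overlap between the groups, against 17.2% of all features.

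Among the 22 minor 3p arms, the SH line against WT held the one called arm ratio of the 4 comparisons. miR-228-3p was 0.185% ± 0.0255 of its precursor in tm1563, 0.195% ± 0.0147 in ME worms, 0.128% ± 0.0306 in SH worms and 0.222% ± 0.0229 in WT (SD, n = 3 each). Its ratio was lower in the SH line than in WT, with a log2 difference of -0.82 ± 0.24 (SE, adjusted p = 0.0461 by edgeR), 1 call among 22 against 6.25% of all precursors. That call was lost without any 1 of the 6 libraries, with an adjusted p between 0.0546 and 0.275. The ratios of miR-259 and miR-1829b also had an unadjusted p under 0.05, which makes 3 of 22 against 21.2% of all 80, with an adjusted p of 0.101 for miR-259 and 0.102 for miR-1829b by edgeR. In 6 of the 22 the ratios did not overlap between the SH line and WT, against 28.8%. miR-259-3p had 13.6, 6.35 and 13.6 CPM in the SH line, against 13.5, 17.1 and 22.8 CPM in WT.

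Of the 22 arms, 17 had a negative and 5 a positive log2 difference between the SH line and WT, with a median of -0.21, against -0.03 for all features and -0.04 for their 5p partners. Of all 250 features, 135 were negative and 115 positive. The minor 5p arms had a median of -0.27 with 3 called lower. For the arm ratio the median log2 difference was -0.21 over the 22 precursors and -0.23 over all 80. The comparisons with WT share its 3 libraries, and the isoform lines each enter 2 comparisons, so these values are not independent of each other.

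Over all 26 arms the summed 3p level was 1127 ± 93.8 CPM in tm1563, 1368 ± 154 CPM in the ME line, 877 ± 97.4 CPM in the SH line and 1085 ± 55.3 CPM in WT (SD, n = 3 each). Without miR-86-3p the sums were 471 ± 29.3 CPM in tm1563, 482 ± 38.7 CPM in the ME line, 396 ± 30.1 CPM in the SH line and 461 ± 37.9 CPM in WT. The summed 5p partners were between 144094 and 174172 CPM in a library. The median 3p share over the 26 precursors was 5.82% in tm1563, 5.14% in ME worms, 5.55% in SH worms and 6.29% in WT, taken over each precursor's mean of 3 libraries. Each of these medians is the midpoint between miR-784, whose 3p arm had 1 to 13 counts in a library, and the next higher precursor. Taken within each library, the median share was 5.81% ± 1.61 in tm1563, 5.30% ± 2.20 in ME worms, 5.44% ± 1.70 in SH worms and 6.23% ± 1.24 in WT (SD, n = 3 each).

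When the log2 ratio of each precursor was centred on its mean over the 12 libraries, the median over the 22 precursors was -0.00 ± 0.14 in tm1563, 0.05 ± 0.05 in ME worms, -0.16 ± 0.06 in SH worms and 0.10 ± 0.06 in WT (SD, n = 3 each). The same median over the 45 precursors with a minor 5p arm was -0.09 ± 0.07 in tm1563, 0.35 ± 0.16 in ME worms, -0.28 ± 0.22 in SH worms and 0.05 ± 0.05 in WT. For the minor 3p arms the 3 SH libraries and tm1563 library 1 were the ones below 0, and the libraries of the ME line and WT overlapped. The median biological coefficient of variation estimated by edgeR was 21.5% for the tested minor 3p arms, 18.3% for their partners and 21.4% for all 250 features. This estimate leaves out counting error and is drawn toward a trend shared by all features, so it is not the whole spread between libraries. From the lowest to the highest library, the CPM of the 26 arms differed by 1.62-fold to 18.9-fold.

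**Figure D4:**
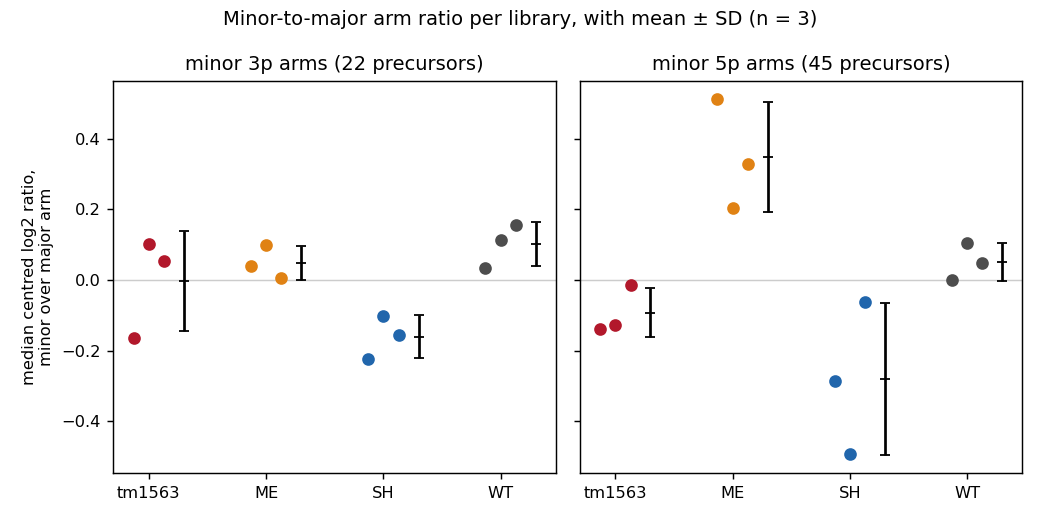
Median centred log2 ratio of the minor over the major arm in each library, for 22 precursors with a minor 3p arm (left) and 45 with a minor 5p arm (right); points are libraries and bars are mean ± SD (n = 3). The minor 3p medians stay between -0.22 and 0.16, and the minor 5p medians between -0.49 and 0.51, with the ME libraries highest.

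In the authors' deposited table for the tm1563 mutant, 51 of the 471 counted features were listed. Of the 26 minor 3p arms only miR-1829b-3p was among them, with a log2 fold change of -1.18. In the authors' deposited table for the ME line, miR-1829b-3p (-0.99) and miR-1829a-3p (-0.65) were listed among 41 of the 471 features. In the authors' deposited table for the SH line, miR-1829b-3p (-1.11) and miR-228-3p (-0.64) were listed among 12 of the 471 features. All 5 entries were lower than WT.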

How the data were processed

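Small RNA was made from whole L4 larvae extracted with TRIzol, with inserts of 18 to 40 bases and single reads of 50 bases, per the labels' protocols. Reads were aligned with Bowtie to build WBcel235, and DESeq2 was used for comparisons, per the submitters' processing notes; versions, and how reads matching several miRNAs were counted, were not stated in the sources at hand. The values used were the authors' deposited read counts per mature arm; the authors' deposited tables of comparisons give log2 fold changes, adjusted p-values and a normalized signal (mean read count) per group, and list only features past the authors' threshold, per the file headers and values.

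Sample columns were matched to genotypes by their name codes. Counts were tested with edgeR 4.0.16 (R 4.3.3; quasi-likelihood, TMM, all 12 libraries, 1 mean per genotype, filter at a minimum count of 10 and a minimum total of 15, Benjamini-Hochberg over 250 features, threshold 0.05). The 221 features not tested held 0.0049% of counts. Arm ratios were tested over 80 precursors with both arms tested. CPM are TMM-scaled. Alternatives used DESeq2 1.42.0 and limma 3.58.1, other scalings and filters, and omitted libraries. The scripts were tested on simulated data. Named are the arms called, the 5 most abundant, the 3 with the highest and the 3 with the lowest 3p share, those at the rule's limits and the 3 of smallest p per comparison. The members and lists were chosen with earlier results of these data known. Adaptor ligation efficiency differs between sequences, so ratios of different arms are less certain than one arm compared between genotypes. PCR duplicates were not removed here. The Wilson intervals of shares cover counting error only, while the interval of a log2 difference also covers the spread between libraries. No 2 libraries agreed within sampling noise. Hairpin positions come from the Ensembl annotation of WBcel235; sequences were not used here.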

Additional observations from a re-analysis of the deposited data

How the results depend on the processing

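No direction of a minor 3p arm or ratio tracked was reversed under any alternative run. In tm1563 against WT the call of miR-1829b-3p was lost with library totals as scaling (0 called), and omitting 1 library gave 0 to 1 calls. Of all features, 15 of 250 were called with library totals, and 5 of 257 to 16 of 256 with 1 library omitted. In the ME line against WT, 0 calls became 1 with RLE size factors, with no filter on low counts, with DESeq2 and with only the 2 groups fitted, each time miR-1829b-3p, and 0 to 2 when 1 library was omitted (miR-86-3p without ME library 2, miR-1829b-3p without WT library 2). Of all features, 37 of 250 were called with RLE size factors, 38 of 471 with no filter and 49 of 250 with DESeq2. With only the 2 groups fitted 32 of 239 were called, and with 1 library omitted 10 of 256 to 39 of 256. In the SH line against WT, 0 level calls became 1 with no filter, 2 with DESeq2 and 2 with a replicate block (miR-1829b-3p and miR-228-3p), and 0 to 1 when 1 library was omitted (miR-1829b-3p without SH library 3 or WT library 2). Of all features, 6 of 471 were called with no filter, 10 of 250 with DESeq2 and 7 of 250 with the block. With 1 library omitted 2 of 258 to 8 of 257 were called. The called ratio of miR-228 was lost (0 called) with limma at a pseudocount of 5, with no filter, with only the 2 groups fitted and with the replicate block, and omitting 1 library gave 0 to 0 calls. Of all precursors, 4 of 80, 2 of 152, 1 of 75 and 5 of 80 were then called, in that order, and 1 of 85 to 4 of 83 with 1 library omitted. In the ME line against the SH line, 2 level calls became 1 with RLE size factors, library totals, no filter or only the 2 groups fitted. Of all features, 24 of 250, 18 of 250, 25 of 471 and 24 of 244 were then called, in that order. Omitting 1 library gave 0 to 2 level calls, against 12 of 257 to 36 of 256 features. Without SH library 2 the calls were miR-86-3p and miR-1829a-3p, the latter lower in the ME line. The ratios gave 0 to 2 calls when 1 library was omitted (miR-4813 and miR-64 without SH library 3), against 4 of 85 to 24 of 84 precursors. The ranges for the minor 3p arms and ratios include miR-244 without ME library 2. It then passed the filter only through the ME libraries where it is high, so it is not read as a call. Among the 22 arms tested with all libraries, the level range for the ME line against WT was 0 to 1. The causes were not tested.

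The replicate block changed no other count of calls. Same-numbered libraries deviated from their group means with correlations between -0.57 and 0.23, so the numbers were not taken as pairs. An omission of WT library 1 with ME library 1, added after seeing the data, gave 0 level and 0 ratio calls among the minor 3p arms in the ME line against WT. Of all features 14 of 255 were then called, and of all precursors 4 of 82. A minimum of 30 counts kept 28 members and a minimum of 120 kept 21. At these depths 3 counts correspond to 0.244 to 0.450 CPM, so the 5 arms under 1 CPM rest on few counts.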
